A study of Tremella fuciformis and Annulohypoxylon stygium and Tremella fuciformis
Annulohypoxylon stygium with 5 samples.

Results

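The genes with which the white jelly fungus Tremella fuciformis and the ascomycete Annulohypoxylon stygium acquire phosphate and sulfate were followed across 5 mycelial transcriptomes. A gene here is a unigene, a sequence assembled from the reads without a genome. It counted as a member when its SwissProt hit had an e-value of at most 1e-20 and was named as a phosphate or sulfate transporter or permease, an acid or alkaline phosphatase, a phytase, a glycerophosphodiester enzyme, a vacuolar transporter chaperone, a sulfate adenylyltransferase, an adenylyl-sulfate kinase or a sulfite reductase. The rule reads names and no expression values, although it was set with earlier results of these data known. It took 76 of the 42507 unigenes in the table. By role, 9 were phosphate importers, 27 phosphatases, 2 glycerophosphodiester enzymes, 11 subunits of the vacuolar polyphosphate complex, 14 sulfate permeases and 13 enzymes of sulfate activation and reduction.

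All mycelia were wild type, and each of the 5 conditions had 1 library. T. fuciformis was sampled 1 week after it had met A. stygium and, as its reference, alone at 2 weeks. A. stygium was sampled 1 week after it had met T. fuciformis and, as its reference, alone at 1 week. A dual library held mycelia of both fungi together, also 1 week after contact. The sources used here do not give the total age of mycelia that had met the other fungus. Culture age and contact therefore cannot be told apart in either fungus, and with 1 library each the differences below have no replicate check.

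Fungi take up inorganic phosphate through plasma membrane symporters, of which Pho84 of baker's yeast is the best known, and release it from organic compounds with secreted acid phosphatases and phytases. When phosphate runs short, yeasts and filamentous fungi are known to induce these genes together, and phosphate in excess is stored in the vacuole as polyphosphate made by the vacuolar transporter chaperone (VTC) complex. Sulfate enters through permeases, is activated by ATP sulfurylase and adenylyl-sulfate kinase, and is then reduced by phosphoadenylyl-sulfate (PAPS) reductase and sulfite reductase to the sulfide from which cysteine is made. The files and references used here hold no sequences of these unigenes, so their identities rest on the names of database hits.

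Each unigene was placed in a fungus by where it was detected when the fungi were sequenced apart. A unigene belonged to a fungus when its highest FPKM, a fragment count corrected for sequence length and library size, reached 1 in that fungus's 2 separate libraries and was 10 times or more that in the other fungus's libraries. T. fuciformis held 20 members, in 14 loci when contigs of 1 assembly cluster count as 1, and A. stygium held 45 members in 32 loci. The other 11 members stayed unplaced, 2 because both fungi showed them and 9 because no separate library reached 1 FPKM. The species of the closest Nr hits followed the placement. All 20 T. fuciformis members hit a genus of Tremellomycetes, and of the 45 A. stygium members 34 hit a genus of Xylariales and 0 a genus of Tremellomycetes. KEGG and KOG hits come from the same unigene sequences, so they are not independent of the SwissProt names. Matched by broad terms such as phosphatase, KEGG gave the same role for 66 of 76 members and KOG for 66 of the 70 with a hit. The VTC subunits were the main exception in KEGG, which named 2 of 11 as such, whereas KOG named Vtc or vacuolar polyphosphate proteins for 11 of 11. The A. stygium phosphatase Unigene5393, named after the broad-range acid phosphatase DET1 of yeast, was called a phosphoglycerate mutase in Nr and in KEGG.

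Summed FPKM of the libraries ranged between 524250 and 658000, and the members held between 0.0867% and 0.196% of it. The table gives no read counts or sequence lengths, so depth is unknown and no counting interval can be given. In the dual library 36.4% of the FPKM lay in T. fuciformis unigenes and 59.0% in A. stygium unigenes, against about 99% for the own fungus in the other 4 libraries. Levels are therefore also given as rescaled FPKM, in which the unigenes of 1 fungus sum to 1e+06 in each library. Relative to the libraries of the fungi alone, this multiplied dual values by 2.91 in T. fuciformis and by 1.47 in A. stygium. In such bulk RNA, fewer hyphae expressing a gene and less of its RNA per hypha cannot be told apart. Ratios are log2 of rescaled FPKM plus 1, interacting over alone, and understate the change of unigenes at low levels.

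Some phosphate genes stood several-fold higher in interacting mycelia, first among them the 1 placed importer of T. fuciformis and importers of A. stygium. Most sulfate genes stayed within 2-fold, as did most unigenes of either fungus. In T. fuciformis after interaction, 3 of 20 members were at least 4-fold higher than alone, beside 2.43% of all its unigenes. They were the only placed PHO84-type importer, an acid phosphatase and a VTC1-type subunit. In the dual library 2 of 20 were, beside 4.98%, namely the same importer and the ATP sulfurylase, and neither was without rescaling. In A. stygium after interaction 3 of 45 were, beside 2.93%, 2 importers and an acid phosphatase. In the dual library 8 of 45 were, beside 3.9%, namely 4 importers, 3 acid phosphatases and a VTC1 contig. Among sulfate genes, 0 of 14 in A. stygium reached 4-fold in either direction, where 5.98% of all its unigenes did after interaction and 8.88% in the dual library. The ATP sulfurylase of T. fuciformis in the dual library was its only sulfate gene to do so. No member of either fungus was 4-fold lower in any of the 4 comparisons, although 2 A. stygium permeases at about 1 FPKM alone were listed at 0 in the dual library.

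**Figure D1:**
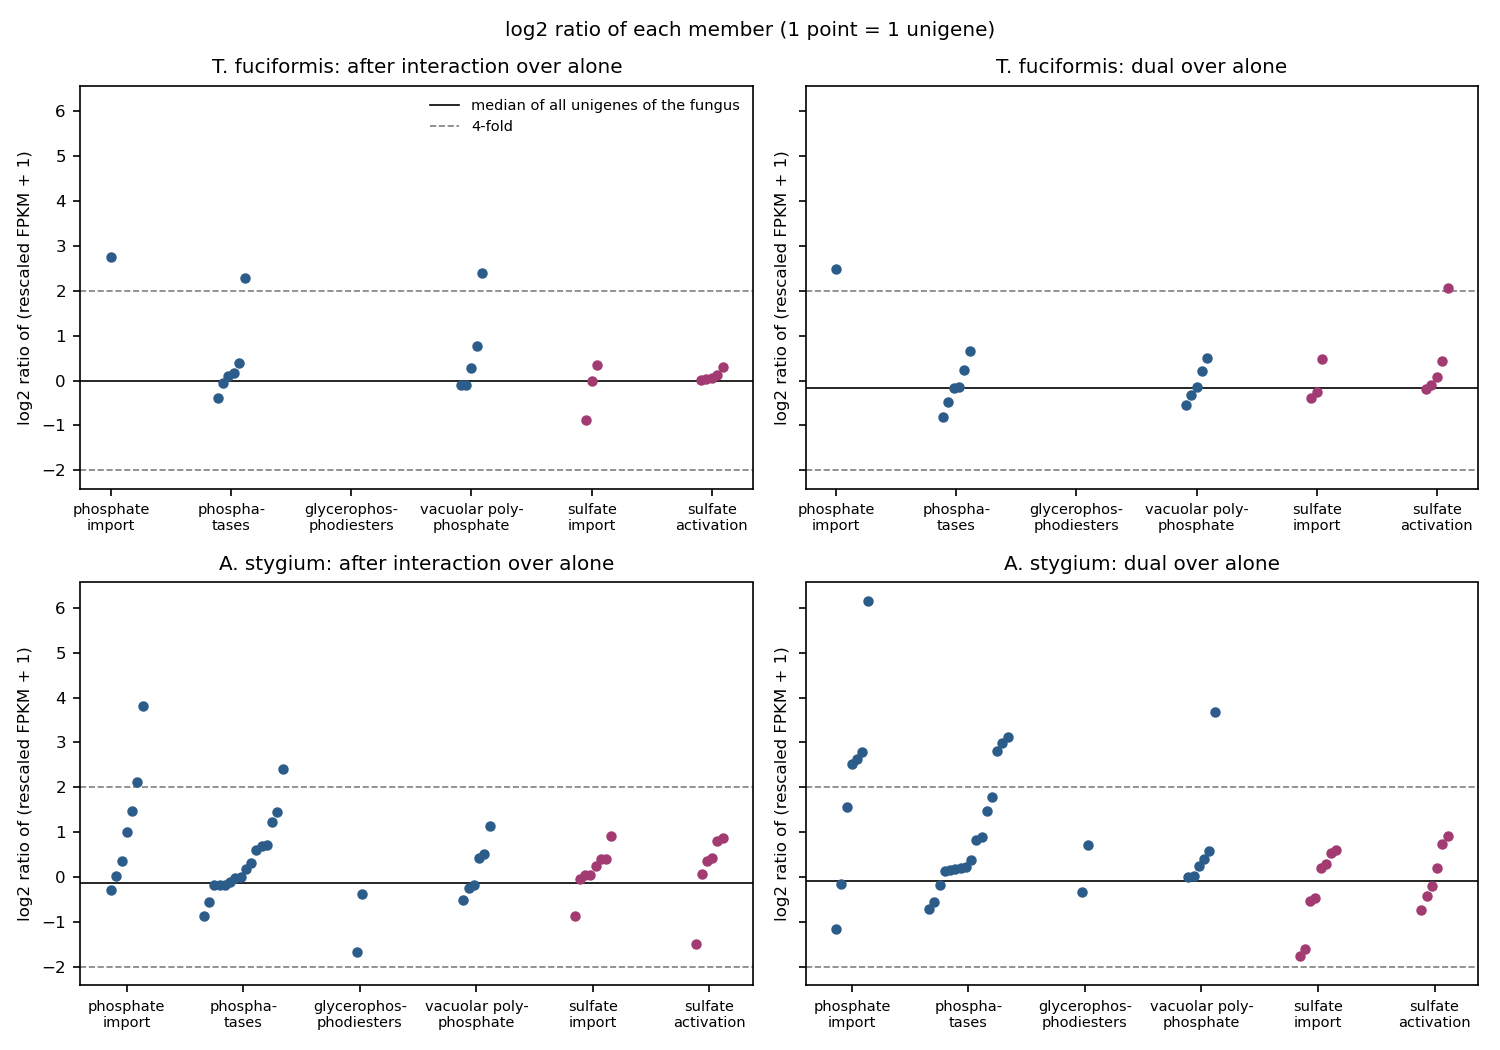
Each point is 1 unigene, placed by role on the horizontal axis and by its log2 ratio of (rescaled FPKM + 1) on the vertical axis, for T. fuciformis (top) and A. stygium (bottom), after interaction over alone (left) and dual over alone (right), with phosphate roles in blue and sulfate roles in purple. The solid line is the median of all unigenes of the fungus and the dashed lines mark 4-fold; the phosphate importers of A. stygium spread upward to 6.16 in the dual library, while its sulfate genes stayed between -1.76 and 0.91.

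Set against all unigenes of the same fungus, the members' shares read as follows. In T. fuciformis after interaction against alone, 3 of 20 members (15%) were 4-fold higher, where 2.43% of all 15354 unigenes were, and 0 were 4-fold lower, where 1.07% were. At 2-fold the counts were again 3 higher and 0 lower, beside 10.4% and 5.26% of all unigenes. The other 17 members were within 2-fold, a share near the 84.3% of all unigenes. The median log2 ratio of the 20 members was 0.10, beside -0.01 for all unigenes. In the dual library against T. fuciformis alone, 2 of 20 (10%) were 4-fold higher and 0 lower, beside 4.98% and 3.56% of 14206 unigenes. The same 2 and 0 held at 2-fold, beside 12.6% and 13.2%, and the median was -0.12, beside -0.17. Without rescaling the split turned to 0 members 4-fold higher and 2 lower, as it did for all unigenes, of which 185 were then higher and 2302 lower. Of the 8 sulfate genes of T. fuciformis, 8 were within 2-fold after interaction and 7 in the dual library, beside 84.3% and 74.2% of all unigenes, so their shares lie near those of the transcriptome.

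In A. stygium after interaction against alone, 3 of 45 members (6.67%) were 4-fold higher and 0 lower, beside 2.93% and 3.05% of 18667 unigenes. At 2-fold, 8 were higher and 2 lower, beside 9.89% and 11.3%, and the median was 0.25, beside -0.13. In the dual library against A. stygium alone, 8 of 45 (17.8%) were 4-fold higher and 0 lower, beside 3.9% and 4.98% of 17549 unigenes. At 2-fold, 11 were higher and 3 lower, beside 11.9% and 14.8%, and the median was 0.24, beside -0.10. All 8 lay in the phosphate roles, which had 31 members. Of the 14 sulfate genes, 13 were within 2-fold after interaction and 12 in the dual library, beside 78.8% and 73.4% of all unigenes, which is again near the share of the transcriptome. The 2 comparisons of a fungus share its library grown alone, so their counts are not independent.

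All 20 and all 45 placed members passed the minimum of 1 FPKM in at least 1 library of each comparison. The acid phosphatase contig CL3850.Contig2 of A. stygium was the only member below 1 FPKM alone, at 0.9 FPKM. It passed through the interacting libraries only, and so had to be higher in them. Many unigenes of the background entered in the same way. Placed by the libraries grown alone, 88 of 13864 T. fuciformis unigenes were 4-fold higher after interaction, beside 3 of 20 members. In A. stygium 105 of 16861 unigenes then were, beside 3 of 44 members. In the dual library 448 T. fuciformis unigenes with 2 members were higher, and 340 A. stygium unigenes with 7 members. Counting each assembly cluster as 1 locus, 6 of 32 A. stygium loci were 4-fold higher in the dual library, beside 3.02% of all its 12088 loci. Of 14 T. fuciformis loci 3 were after interaction, beside 2.03% of 8930, and 2 in the dual library, beside 4.85% of 8293. The direction of small differences in the dual library rests on the rescaling: without it, 7 of 20 T. fuciformis and 13 of 45 A. stygium members changed sign.

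Phosphate importers had the largest ratio of all members in each of the 4 comparisons. T. fuciformis had 1 placed importer, Unigene3813, whose best hit is PHO84, the high-affinity proton-coupled phosphate symporter of baker's yeast. Unigene3813 stood at 73.0 rescaled FPKM after interaction and 60.6 in the dual library, against 10.01 alone. In deposited FPKM these levels were 47.7, 13.2 and 6.37, so the level alone was the lowest of the 3 on either scale. The log2 ratio was 2.75 after interaction, with 69 of 15354 unigenes having a larger one. In the dual library it was 2.48, which 527 of 14206 exceeded, and without rescaling it was 0.95.

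A. stygium had 7 placed importers in 5 loci, 6 named PHO84 and 1 named after pho-4, the phosphate-repressible, sodium-coupled permease of Neurospora crassa. Their summed level was 226 rescaled FPKM after interaction and 682 in the dual library, against 65.6 alone, a 3.45-fold and a 10.4-fold difference. Unigene9708 had 67.8 rescaled FPKM after interaction and 347 in the dual library, against 3.88 alone. Alone, Unigene9708 was a minor importer of this fungus, while in the dual library it held 50.9% of all importer level. Its log2 ratios were 3.82 and 6.16, and only 22 of 18667 and 11 of 17549 unigenes had larger ones.

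Another 3 importers of A. stygium followed the same order of libraries, lowest alone and highest in the dual library. The pho-4-type permease Unigene11893 had 31.9 rescaled FPKM after interaction and 51.9 in the dual library, against 6.63 alone (log2 ratios 2.11 and 2.79). Unigene1951 had 25.3 and 80.8, against 12.1 alone (just over 2-fold, and a log2 ratio of 2.64). CL5562.Contig1, the importer with the highest level alone, had 89.5 and 188, against 31.8 alone (1.46 and 2.53). All 4 importers named so far were above their level alone in both interacting libraries.

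The remaining 3 importer contigs of A. stygium were weak and did not share this order. CL5562.Contig2, from the same cluster as CL5562.Contig1, had 6.28 rescaled FPKM after interaction and 2.23 in the dual library, against 6.17 alone. With the contigs of the cluster summed, the log2 ratios were 1.31 and 2.30, close to those of CL5562.Contig1. CL4462.Contig1 and CL4462.Contig2 stayed under 10 rescaled FPKM in every library, with log2 ratios of 0.35 and -0.29 after interaction and of -0.15 and 1.56 in the dual library. Summed, the CL4462 cluster did follow the order, with 5.39 rescaled FPKM after interaction and 11.4 in the dual library, against 5.03 alone (0.08 and 1.04). Contigs of 1 cluster, and PHO84-type importers in general, are related sequences between which the authors' counting could split reads, so levels of single contigs are uncertain. KOG placed 1 of the 9 importers with sodium-phosphate symporters, and KEGG placed 8 in the family of proton symporters that Pho84 belongs to.

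**Figure D2:**
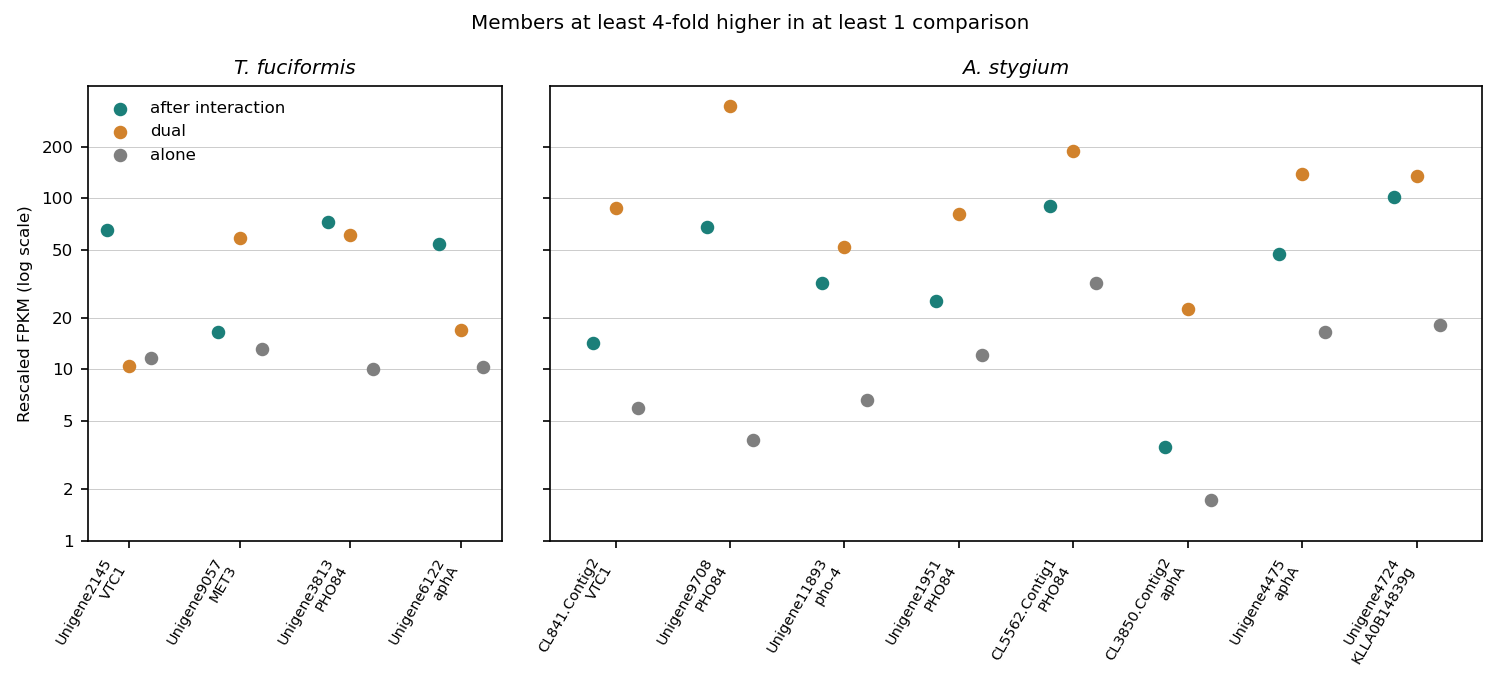
Rescaled FPKM on a log scale for the 4 T. fuciformis and 8 A. stygium members that were at least 4-fold higher in at least 1 comparison, with 1 point per library, after interaction (green), dual (orange) and alone (grey); these genes were picked by their ratio. In A. stygium the grey point is the lowest and the orange point the highest for all 8, whereas in T. fuciformis the green point is the highest for all but the ATP sulfurylase Unigene9057. In deposited FPKM, Unigene4724 of A. stygium was instead higher after interaction, at 55.05, than in the dual library, at 47.74.

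Phosphatases, which free phosphate from organic compounds, were higher in part in A. stygium and for 1 gene in T. fuciformis. The 16 placed A. stygium phosphatases summed to 630 rescaled FPKM after interaction and 952 in the dual library, against 516 alone. Unigene4724, a probable acid phosphatase named after a gene of Kluyveromyces lactis, had 102 rescaled FPKM after interaction and 135 in the dual library, against 18.3 alone (log2 ratios 2.42 and 2.82). In deposited FPKM it had 55.05 after interaction and 47.74 in the dual library, against 9.48 alone. Unigene4475, named after the acid phosphatase aphA of Aspergillus ficuum, had 47.2 and 138, against 16.6 alone (1.46 and 2.98). These 2 genes were low alone and among the strongest phosphatases in the dual library. CL3850.Contig2, also aphA-type, had 3.52 and 22.7, against 1.74 alone (0.72 and 3.11), and its neighbour CL3850.Contig3 had 14.1 and 31.1, against 8.33 alone (0.69 and 1.78). The whole CL3850 cluster had log2 ratios of 0.43 and 1.77, so as 1 locus it was under 4-fold.

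Phytases release phosphate from phytate, the main phosphate store of seeds. A. stygium had 2, and they differed. Unigene8322 had 90.4 rescaled FPKM after interaction and 167 in the dual library, against 59.6 alone (log2 ratios 0.59 and 1.47). Unigene879, the phosphatase with the highest level alone, had 105 and 129.7, against 118 alone (-0.17 and 0.13). Unigene8322 was the strongest phosphatase of the dual library, and Unigene879 was flat.

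The other A. stygium phosphatases had lower or less ordered levels. Of 4 unigenes named after PHO1, the secreted acid phosphatase of Komagataella pastoris, CL1298.Contig1 had a log2 ratio of 1.22 after interaction and 0.23 in the dual library, and CL1298.Contig2 of -0.88 and 0.83. As 1 locus they were at 0.22 and 0.68, so the contigs cancelled each other. Unigene4075 was at 0.18 and -0.18, and Unigene1154, under 5 rescaled FPKM throughout, at 0.31 and -0.71. The vacuolar alkaline phosphatase of the PHO8 type, Unigene11063, had 25.1 rescaled FPKM after interaction and 37.4 in the dual library, against 28.5 alone. The thiamine-repressible type of fission yeast, Unigene11027, had 68.2 and 46.5, against 69.2 alone, and its dual log2 ratio of -0.56 was the lowest among phosphatases of this fungus above 10 FPKM. CL2806.Contig3, whose Nr hit is a zinc finger protein, was at -0.56 and 0.20, DET1-type Unigene5393 at -0.12 and 0.88, and CL5526.Contig1 and CL5526.Contig2 lay between -0.18 and 0.17.

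T. fuciformis had 6 placed phosphatases, 5 of them phytase-type. Its aphA-type acid phosphatase Unigene6122 had 54.2 rescaled FPKM after interaction and 17.0 in the dual library, against 10.4 alone (log2 ratios 2.28 and 0.66). In deposited FPKM Unigene6122 had 35.4 after interaction and 3.71 in the dual library, against 6.59 alone, so its place in the dual library turns with the rescaling. The phytase CL4771.Contig2, the strongest of the 6, had 81.4 and 60.5 rescaled FPKM, against 107 alone (-0.39 and -0.81). The other phytase unigenes, Unigene2670 and the 3 contigs of CL6636, had log2 ratios between -0.07 and 0.40 after interaction and between -0.49 and 0.24 in the dual library. The strongest phosphatase was thus lower in both interacting libraries, by under 2-fold, while the acid phosphatase was higher. The summed phosphatase level of T. fuciformis was 184 after interaction and 117 in the dual library, against 162 alone.

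Glycerophosphodiester enzymes were found in A. stygium alone. Both contigs of CL7932 were named after GDE1, which in yeast splits glycerophosphocholine inside the cell. CL7932.Contig1 had 93.7 rescaled FPKM after interaction and 203 in the dual library, against 123 alone (log2 ratios -0.39 and 0.72). CL7932.Contig2 had 19.1 and 50.5, against 63.6 alone (-1.68 and -0.33), the lowest ratio after interaction of all members. As 1 locus GDE1 was at -0.72 after interaction and 0.44 in the dual library, or -0.11 in the dual library from summed FPKM without rescaling, so its direction there depends on the scale.

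The VTC complex makes polyphosphate and moves it into the vacuole; in yeast, Vtc4 is the catalytic subunit and Vtc1 a small membrane subunit. In T. fuciformis the VTC1-type Unigene2145, which is in no assembly cluster, had 65.5 rescaled FPKM after interaction and 10.5 in the dual library, against 11.7 alone (log2 ratios 2.39 and -0.14). Unigene2145 was thus high in 1 library only, unlike the importer Unigene3813. The other VTC1-type contigs of T. fuciformis, CL1081.Contig2 and CL1081.Contig3, were more strongly expressed and flatter. CL1081.Contig2 had 112 rescaled FPKM after interaction and 107 in the dual library, against 92.3 alone, and CL1081.Contig3 had 120.1 and 100.05, against 70.2 alone. The VTC4 contigs CL2536.Contig1 and CL2536.Contig2 had between 70.04 and 102 rescaled FPKM in the 3 libraries, with log2 ratios of -0.10 each after interaction and of -0.32 and -0.54 in the dual library.

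In A. stygium the VTC1 cluster CL841 behaved differently in its 2 contigs. CL841.Contig2 had 14.2 rescaled FPKM after interaction and 87.3 in the dual library, against 5.94 alone (log2 ratios 1.13 and 3.67). CL841.Contig1 had 57.2 and 43.0, against 42.6 alone (0.42 and 0.01). Alone CL841.Contig1 was the stronger contig by far, and in the dual library it was the weaker. Summed, the cluster had 71.4 and 130.3, against 48.5 alone (0.55 and 1.41), so the locus was more than 2-fold but not 4-fold higher in the dual library. VTC2-type Unigene9666 had 47.4 and 53.7, against 53.6 alone, and the 3 VTC4 contigs of CL4811 together had 74.1 and 99.1, against 71.9 alone. InterPro found the phosphate-sensing SPX domain in 4 of the 11 VTC members of both fungi.

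**Figure D3:**
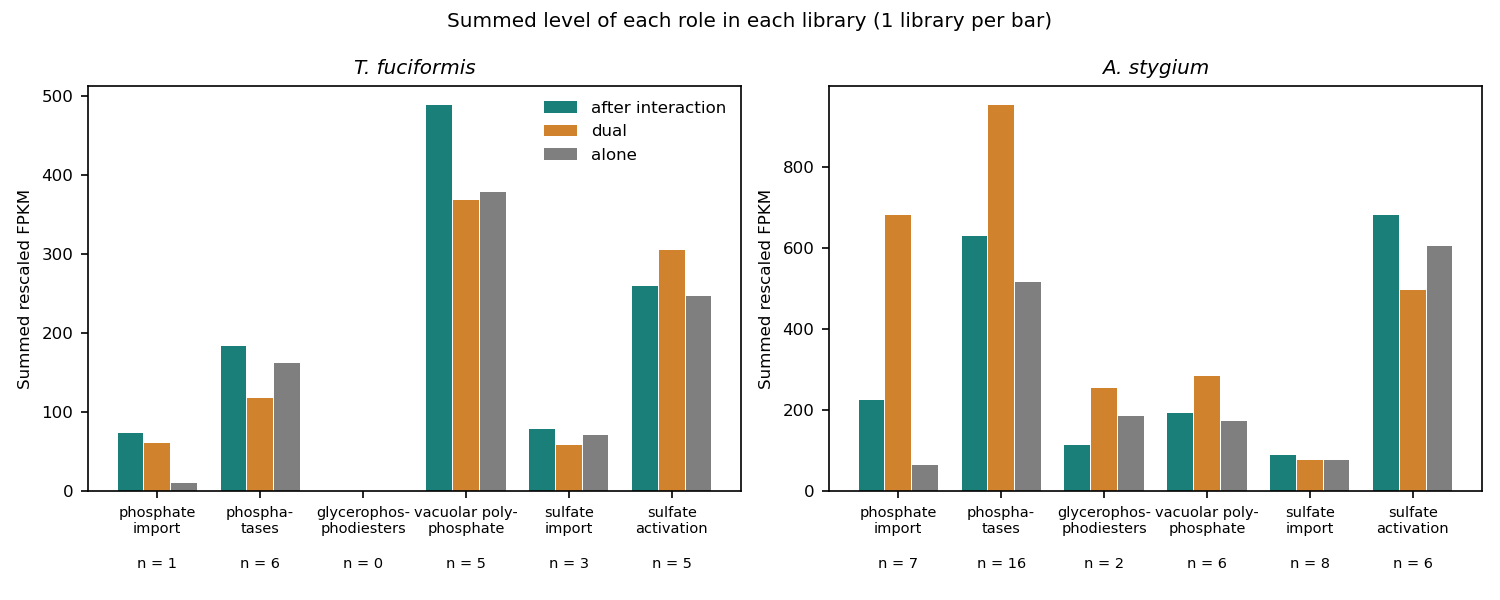
Summed rescaled FPKM of the members of each role in T. fuciformis (left) and A. stygium (right), with 1 bar per library, after interaction (green), dual (orange) and alone (grey), and the number of members (n) under each role. Phosphate import of A. stygium has bars at 226, 682 and 65.6, and sulfate import of the same fungus has nearly level bars at 88.6, 77.6 and 77.4.

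The summed levels set the roles side by side within a fungus. In T. fuciformis the VTC subunits held the largest sum, 488 rescaled FPKM after interaction and 368 in the dual library, against 378 alone, and the importer the smallest alone. Phosphate import was 7.30-fold higher after interaction and 6.05-fold higher in the dual library than alone, and no other role of T. fuciformis differed by more than 1.38-fold on the rescaled scale. In A. stygium the phosphate importers overtook the enzymes of sulfate activation and reduction, with 682 rescaled FPKM against 496 within the dual library, where alone they had 65.6 against 606. Of all importer FPKM in the dual library, members of A. stygium held 94.1% and the T. fuciformis importer 5.16%, although T. fuciformis held 36.4% of that library. For VTC the corresponding shares were 55.5% and 44.5%.

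The summed rescaled level of the sulfate permeases differed little between the libraries of either fungus. The 8 placed A. stygium permeases summed to 88.6 rescaled FPKM after interaction and 77.6 in the dual library, against 77.4 alone; without rescaling the dual sum was lower, by a log2 ratio of -0.55. Unigene4834, of a fission yeast permease type, had 27.1 and 27.7, against 22.6 alone, and Unigene9516, named after the Neurospora crassa permease cys-14, had 24.4 and 16.8, against 23.7 alone. The other 3 cys-14-type unigenes stayed under 6 rescaled FPKM: Unigene5909 had log2 ratios of 0.92 and 0.60, and Unigene7381 of -0.88 and -0.54. Unigene10121 had 1.06 FPKM after interaction and was listed at 0 in the dual library, against 1.06 FPKM alone. In cluster CL2121, CL2121.Contig3 was likewise listed at 0 in the dual library, against 1.24 FPKM alone, while the 3 placed contigs together had log2 ratios of 0.29 and 0.22.

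T. fuciformis had 3 permease unigenes, all of fission yeast types. CL1844.Contig2 had 46.6 rescaled FPKM after interaction and 27.8 in the dual library, against 36.6 alone (log2 ratios 0.34 and -0.39). CL3214.Contig3 had 31.7 and 26.7, against 32.1 alone (-0.02 and -0.26), and CL1844.Contig1 stayed under 4 rescaled FPKM. On the rescaled scale none of the 3 was 2-fold higher or lower in either comparison. Without rescaling their summed level in the dual library was lower than alone, by a log2 ratio of -1.83.

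**Figure D4:**
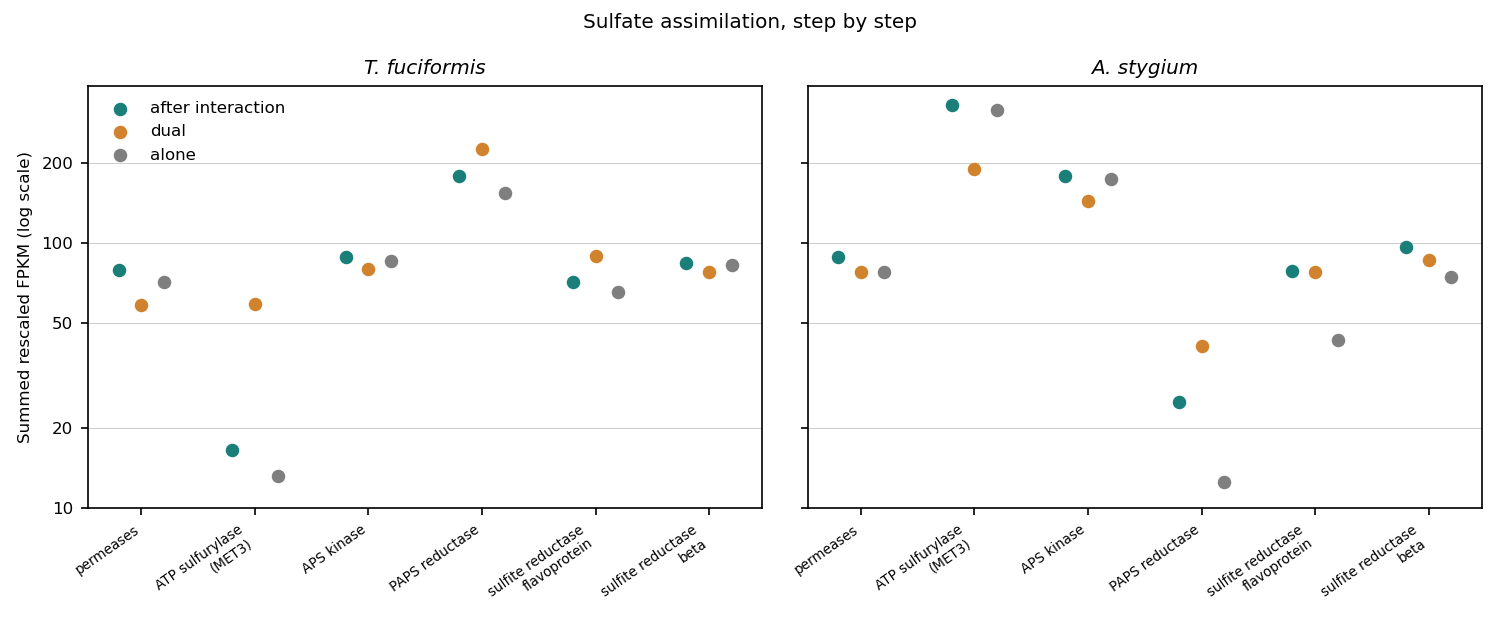
Summed rescaled FPKM on a log scale for each step of sulfate assimilation, in the order of the pathway, with 1 point per library, after interaction (green), dual (orange) and alone (grey); PAPS reductase is shown to complete the pathway and is not a member. ATP sulfurylase was the weakest step of T. fuciformis alone, at 13.2, and the strongest of A. stygium alone, at 315, and PAPS reductase was the reverse, at 154 and 12.5.

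Steps of sulfate activation were unequal within each fungus, and unequal in opposite ways. ATP sulfurylase, the first enzyme, was encoded in T. fuciformis by Unigene9057, a MET3-type gene, which had 16.6 rescaled FPKM after interaction and 58.5 in the dual library, against 13.2 alone (log2 ratios 0.31 and 2.07). In deposited FPKM it had 10.8 after interaction and 12.8 in the dual library, against 8.4 alone, so the 4-fold step in the dual library came with the rescaling by 2.91, and without it the log2 ratio was 0.55. Unigene9057 read 0 FPKM in both libraries of A. stygium. The A. stygium enzyme, CL2304.Contig1, had 329.8 rescaled FPKM after interaction and 189.6 in the dual library, against 315 alone (0.06 and -0.73), and was the strongest A. stygium member alone.

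Adenylyl-sulfate kinase, the second enzyme, was roughly level in both fungi on the rescaled scale. In deposited FPKM it was lower in the dual library, at 17.4 against 54.4 alone in T. fuciformis and 50.6 against 89.7 in A. stygium. T. fuciformis CL5626.Contig2 had 88.3 rescaled FPKM after interaction and 79.8 in the dual library, against 85.4 alone. The A. stygium cluster CL6349 had 178 and 143, against 173 alone, although CL6349.Contig2 by itself was at -1.48 after interaction and CL6349.Contig1 at 0.42. The last enzyme, sulfite reductase, has a flavoprotein and a beta subunit. The A. stygium flavoprotein contigs of CL7191, of the MET10 type, together had 78.4 and 77.7, against 42.9 alone (log2 ratios 0.85 and 0.84), and both contigs moved alike. Its beta subunit Unigene12281 had 96.1 and 85.8, against 74.3 alone. In T. fuciformis the flavoprotein Unigene5604 had 70.8 and 88.8, against 65.3 alone, and the beta contigs of CL4968 together had 84.0 and 77.6, against 82.6 alone. In deposited FPKM Unigene5604 was lower in the dual library, at 19.4 against 41.6 alone, while CL7191 was still higher, at 27.5 against 22.3.

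Ratios differed between contigs of the same cluster. Among clusters with at least 2 members, the log2 ratios of the contigs spread by more than 1 in 5 of 11 A. stygium clusters after interaction and in 6 of 11 in the dual library. In T. fuciformis this was so in 1 of 5 and 0 of 5. The widest spreads were those of the importer cluster CL5562, 3.68, and of the VTC1 cluster CL841, 3.66, both in the dual library.

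Unigenes matching 7 lists of names for other genes of both pathways numbered 43 in T. fuciformis and 94 in A. stygium. In T. fuciformis 0 were 4-fold higher and 0 lower after interaction, beside 2.43% and 1.07% of all unigenes, and of 42 that could be compared in the dual library 1 was higher and 0 lower, beside 4.98% and 3.56%. In A. stygium 8 of 94 were 4-fold higher and 5 lower after interaction, beside 2.93% and 3.05%, and of 89 in the dual library 8 were higher and 3 lower, beside 3.9% and 4.98%. Several of these were contigs of the same clusters, such as the mitochondrial phosphate carriers. The counts also include CL2673.Contig1 of T. fuciformis and Unigene15942 of A. stygium, which are named as tetraphosphatases. The name search for sulfur regulators took both in by spelling only. Unigene15942 had a log2 ratio of -2.44 after interaction and is 1 of the 5 lower. The list of phosphate regulators, taken by name, holds nuc-2, preg, PHO85 cyclin and SYG1 types. Whether each of them acts on phosphate uptake was not tested. All 4 in T. fuciformis were within 2-fold in both comparisons, beside 84.3% and 74.2% of all unigenes. In A. stygium 1 of 12 was 2-fold higher and 0 lower after interaction, beside 9.89% and 11.3% of all unigenes. Of 11 in the dual library 2 were 2-fold higher and 1 lower, beside 11.9% and 14.8%, all 3 contigs of 1 cluster. In Neurospora crassa, nuc-2 relays low phosphate and preg is a cyclin that represses uptake genes. The nuc-2-type cluster CL2566 of A. stygium had log2 ratios of 0.32 and 0.87 when summed, but in the dual library its contigs ranged between 1.78 in CL2566.Contig2 and a contig listed at 0, CL2566.Contig4, against 3.86 FPKM alone. The preg-type Unigene6800 of A. stygium had 0.03 and 0.14, and Unigene4694 of T. fuciformis 0.12 and 0.08.

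Among enzymes downstream of uptake, the A. stygium endopolyphosphatase CL2828.Contig1, of a family that cuts polyphosphate chains, had 49.9 rescaled FPKM after interaction and 234 in the dual library, against 8.97 alone (log2 ratios 2.35 and 4.56). Its sister contig CL2828.Contig2 had 13.6 and 6.36, against 14.3 alone, and the cluster was at 1.41 and 3.32. PAPS reductase Unigene461 of A. stygium had 25.2 and 40.8, against 12.5 alone (0.95 and 1.63), and Unigene11952 of T. fuciformis had 178 and 225, against 154 alone (0.21 and 0.55; in deposited FPKM the dual value was the lower, 49.1 against 97.7 alone). The cys-3-type sulfur regulator of A. stygium, cluster CL8263, is named after the Neurospora crassa activator of sulfur genes. CL8263.Contig1 had 149 and 211, against 92.5 alone (0.68 and 1.18). CL8263.Contig2 was at 0.51 and 0.79, and the cluster at 0.63 and 1.06. Cysteine dioxygenase, which oxidises cysteine, was represented in A. stygium by CL2907, whose contigs summed to log2 ratios of 0.57 and 2.03. These genes were chosen among the lists after their values were seen, and the whole lists were flatter. The list of polyphosphate, pyrophosphate and inositol polyphosphate enzymes had median log2 ratios of 0.18 and -0.05 in A. stygium. In T. fuciformis its medians were -0.01 and -0.54. In A. stygium the list with PAPS reductase had medians of 0.12 and 0.15. Sulfur scavenging had 0.04 and 0.09 there, and sulfur regulators -0.14 and -0.24.

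Unplaced members were all weak. The PHO84-type Unigene6228 had 1.54 FPKM in T. fuciformis and 1.36 in A. stygium sampled after interaction and 1.95 in the dual library, against 1.6 and 0.27 in T. fuciformis and A. stygium alone. The MET3-type Unigene11504 had 0.65, 0.35 and 0.72 in the same order, against 0.68 and 1.4. Both had closest hits in Cryptococcus and could be given to neither fungus. Among the 9 low members the highest value was 3.68 FPKM, of the permease contig CL2121.Contig1 in the dual library. The e-value limit separated near neighbours. The last members inside it were CL5562.Contig2 at 3.7e-22 and CL5562.Contig1 at 3.6e-22, and the first of 7 matching unigenes outside were a sulfite reductase fragment, Unigene17482, at 1.4e-20, an acid phosphatase contig, CL4986.Contig2, at 9.7e-17, and VTC2-type Unigene10647 at 5.1e-16. Unigene10647, a T. fuciformis sequence left out by the rule, had 179 FPKM after interaction and 40.2 in the dual library, against 98.1 alone, above every T. fuciformis member.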

How the data were processed

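The authors deposited 1 table of FPKM values for assembled unigenes, 1 column per library, with database hits, per the file headers. RNA was extracted with Trizol and sequenced with standard Illumina protocols, per the labels' protocols. The sources used here do not name the assembler, aligner or counting tool, nor say whether cultures were pooled. The table held 0 further value columns.

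FPKM were rescaled within each fungus to 1e+06 per library, and log2((interacting + 1)/(alone + 1)) was taken where either library reached 1 FPKM. A call means at least 4-fold, with 2-fold counts beside it. Since each group had 1 library, no p-value is given and calls describe these libraries. Low values of the other fungus's unigenes gave no common step (30.6% of 615 and 26.5% of 521 ratios within 0.1 log2), so read depth was not recovered.

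Named members were, by rule, the strongest of each role and fungus, every member past 4-fold with at least 10 FPKM, and the 5 highest and 5 lowest ratios per comparison, 32 in all; further members are given to account for each role. Members, lists and rule were chosen with earlier results of these data known. A total of 9 alternatives was run. Python 3.11.15, pandas 2.3.3, numpy 2.4.6 and matplotlib 3.10.9 were used.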

Additional observations from a re-analysis of the deposited data

Results flagged for a closer look

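For 2 roles the summed level in the dual library lay on opposite sides of the level alone in the 2 fungi, with 1 library on each side. The difference between the fungi was not tested. Phosphatases had a log2 ratio of summed rescaled FPKM of -0.464 in T. fuciformis, where the phytase CL4771.Contig2 held 51.6% of the dual sum, and of 0.884 in A. stygium. Without rescaling these were -2.01 and 0.33. Leaving out that phytase, an alternative chosen after seeing the data, turned the T. fuciformis value to 0.05, with sums of 56.8 in the dual library and 55.0 alone, so its direction rests on 1 unigene. Enzymes of sulfate activation and reduction had 0.305 in T. fuciformis and -0.287 in A. stygium, and without rescaling -1.24 and -0.84, so the sign in T. fuciformis depends on the rescaling. Without the ATP sulfurylase CL2304.Contig1 the A. stygium value was 0.08, with sums of 307 in the dual library and 290.1 alone, so its direction also rests on 1 unigene. Leaving out the strongest member of the other 2 sums, Unigene879 and CL5626.Contig2, gave 1.05 and 0.48.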

How the results depend on the processing

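No paired analysis was possible because each group had 1 library. After interaction, the counts of 4-fold higher members (3 in each fungus) and lower ones (0) held under all 9 alternatives, except that T. fuciformis had 2 with an e-value of at most 1e-50. The median of A. stygium after interaction was 0.366 with median ratio scaling and 0.0524 at 1e-50 (main value 0.253).

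In the dual library against T. fuciformis alone, FPKM without rescaling gave 0 members 4-fold higher, 2 lower and a median of -1.32, beside a median of -1.42 and 185 higher and 2302 lower among all unigenes, where rescaled values gave 708 and 506. The 2 then lower were CL2536.Contig2 (-2.02) and CL4771.Contig2 (-2.28). Median ratio scaling gave a median of 0.0294. Against A. stygium alone, 8 members were 4-fold higher; this was 4 at 1e-50. With a pseudocount of 0.1, 2 were 4-fold lower, both listed at 0. The median was 0.387 at 10 FPKM or more, 0.412 with contigs summed and -0.21 without rescaling, beside -0.55 for all unigenes.

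For named members, 6 of the alternatives gave 381 log2 ratios. In 4 the 4-fold call was lost and in 2 gained, and in 11 a ratio with no call moved by 1 or more. The sign changed in 18, 11 of them without rescaling, 4 with median ratio scaling and 3 with contigs summed. Lost calls were all in the dual library: Unigene3813 (0.95), Unigene9057 (0.55) and CL5562.Contig1 (1.95) without rescaling, and CL841.Contig2 (1.41) with contigs summed. FPKM without counts leave the error of each value unknown.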
